A study of Mus musculus with 8 samples.

Results

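Inflammasomes are protein platforms that assemble in the cytosol when a cell meets microbial products or damage. The 10 genes described here encode the parts of that machinery: the sensors Nlrp3, Nlrc4 and Aim2, the adaptor Pycard (also called ASC), the proteases Casp1 and Casp4, the pore protein Gsdmd, the cytokines Il1b and Il18, and Il1rn, the secreted antagonist of the interleukin-1 receptor. They were taken as a fixed list of gene symbols and found by Entrez identifier among the 36528 identifiers of each library. The rule goes by gene name and uses no measured value, but the list was chosen with earlier results of these data known. All 10 passed the filter on low counts.

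A sensor recruits ASC, which gathers caspase-1 into an active complex. Caspase-1 then cuts the precursors of interleukin-1 beta and interleukin-18 into active cytokines, and it cuts gasdermin D, whose freed end forms pores that release the cytokines and can kill the cell by pyroptosis. Caspase-4 of the mouse, long known as caspase-11, binds bacterial lipopolysaccharide in the cytosol and cuts gasdermin D directly. Macrophages are the best known site of these reactions, and transcription of several of the genes is raised beforehand by Toll-like receptors and NF-kB, a step called priming.

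RNA was sequenced from mouse mesothelial cells taken from the omentum, described as primary, with 4 WT libraries and 4 libraries labelled as BAP1 knockout (BAP1 KO). BAP1 is a nuclear deubiquitinase that acts on histone H2A. The sources used here do not give strain, age, treatment, how the knockout was made or whether libraries came from separate animals or cultures. The p-values therefore set the genotype difference only against the scatter among these libraries, and that scatter may be technical. Total counts per library were 67.1 to 84.9 M, more than the number of reads that the labels' protocol names. Bap1 itself stood at 63.2 ± 0.73 CPM (counts per M of the scaled library total; SD, n = 4) in WT and 53.2 ± 0.91 CPM in BAP1 KO, which is 84.2% of WT, and which exons the knockout removes was not known here. All 12 mesothelial markers were detected, of which 4 were higher and 6 lower in BAP1 KO, where over all 16929 genes tested 61.1% passed the test described below, 29% higher and 32.1% lower. Upk3b was at 462 and 464 CPM and Wt1 at 121 and 166 CPM in WT and BAP1 KO, while Msln went from 6.95 to 3.06 CPM, Krt18 from 11.7 to 4.47 CPM and Krt8 from 2.35 to 0.79 CPM. The mesothelial markers summed to 1238 to 1270 CPM in WT and 1302 to 1312 CPM in BAP1 KO. Markers of macrophages and fibroblasts were present too, with higher sums, but sums over different genes do not rank the amounts of cell types. Which cells the transcripts of the 10 genes came from was not tested. Of 15 macrophage markers, 9 were higher and 5 lower in BAP1 KO, and their summed level was 16300 to 16630 CPM in WT and 18900 to 19490 CPM in BAP1 KO, or 8071 to 8257 and 8200 to 8359 CPM without Lyz2. None of these 15 was at 0. Of 8 fibroblast markers 7 were lower, with sums of 19500 to 20850 CPM in WT and 15710 to 16280 CPM in BAP1 KO. Most of these sums was Col1a1 (8351 and 7270 CPM), Col1a2 (6111 and 4476 CPM) and Col3a1 (4197 and 3094 CPM). Of 8 neutrophil markers only S100a8 passed the filter, at 0.97 and 0.80 CPM (adjusted p = 0.14 by edgeR). The others had at most 18 counts in any library and were not compared. Fewer cells of a type and less RNA per cell cannot be told apart in such bulk RNA, and the part of a changed cell mixture in the differences below was not tested.

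The stretches of DNA just before the starts of 4 of these genes are shown because their transcripts behaved differently: Il1b and Il1rn fell by nearly the same factor, Casp4 rose, and Casp1, its neighbour on chromosome 9, did not pass the test. Each is the 250 bases before an annotated start (RefSeq, GRCm38.p6), read 5′ to 3′ on the strand of the gene, at chr2:129371140-129371389 (minus strand), chr2:24336610-24336859 (plus), chr9:5298267-5298516 (plus) and chr9:5308599-5308848 (plus). Capitals mark matches to the motifs given after the sequences.
Il1b: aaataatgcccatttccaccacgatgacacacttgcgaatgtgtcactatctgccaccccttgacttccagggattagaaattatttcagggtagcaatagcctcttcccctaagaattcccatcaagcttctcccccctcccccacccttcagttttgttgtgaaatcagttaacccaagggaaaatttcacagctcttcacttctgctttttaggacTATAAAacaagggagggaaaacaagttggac
Il1rn: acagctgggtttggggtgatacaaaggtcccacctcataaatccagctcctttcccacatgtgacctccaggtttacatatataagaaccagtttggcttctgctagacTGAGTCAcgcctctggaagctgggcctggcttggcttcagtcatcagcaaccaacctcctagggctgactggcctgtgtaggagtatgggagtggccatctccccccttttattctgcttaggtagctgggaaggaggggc
Casp1: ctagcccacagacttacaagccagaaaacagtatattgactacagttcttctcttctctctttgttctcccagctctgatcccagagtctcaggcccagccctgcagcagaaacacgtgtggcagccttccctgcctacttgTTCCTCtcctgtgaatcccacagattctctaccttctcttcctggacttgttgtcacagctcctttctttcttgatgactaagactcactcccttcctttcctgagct
Casp4: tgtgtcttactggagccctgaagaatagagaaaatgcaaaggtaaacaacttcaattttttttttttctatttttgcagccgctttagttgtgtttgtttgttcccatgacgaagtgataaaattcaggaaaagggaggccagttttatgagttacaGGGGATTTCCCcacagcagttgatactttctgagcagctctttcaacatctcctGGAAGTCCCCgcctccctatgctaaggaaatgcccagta

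Windows were found for 9 of the 10 genes, 13 windows in all because some genes have several starts. The motifs searched were the kB consensus, the PU.1 core GAGGAA, the AP-1 site TGANTCA and the interferon-stimulated response element (ISRE), all on both strands, and TATAAA on the strand of the gene. The window of Il1b held TATAAA, from 31 to 26 bases before the start. The Il1rn window shown held an AP-1 match (141 to 135 bases before). Windows at other annotated starts of Il1rn, chr2:24345041-24345290 and chr2:24345121-24345370, held 0 matches to any of the motifs. The window of Casp1 held a PU.1 core on the other strand (108 to 103). The Casp4 window held 3 kB matches, 2 of them overlapping at 93 to 84 and 92 to 83 bases before the start and the other at 39 to 30. Over the 9 genes, kB matched in 2 (Casp4 and Nlrp3), the PU.1 core in 4, AP-1 in 1, TATAAA in 1 and the interferon element in 0. Among all 32851 promoter windows of this length, the shares with a match were 7.25% for kB, 23.3% for PU.1, 6.75% for AP-1, 7.59% for TATAAA and 2.98% for the interferon element. These shares are per window. The counts over the 9 genes are per gene, with a match in any of its windows, so they are not like for like.

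The comparison of BAP1 KO with WT asks how loss of BAP1 changes these transcripts. Transcripts of 6 of the 10 genes fell and of 1 rose, by edgeR's quasi-likelihood test at an adjusted p below 0.05 over all genes. The genes that fell were Nlrc4, Aim2, Gsdmd, Il1b, Il18 and Il1rn, and Casp4 rose. Nlrp3, Pycard and Casp1, the parts of the canonical NLRP3 inflammasome, were the 3 that did not pass. Over all 16929 genes tested, 61.1% passed, 32.1% lower and 29% higher, so the 7 of 10 that passed is near the background. The median log2 fold change (BAP1 KO minus WT) was -0.57 over the 10 genes and -0.0046 over all genes tested. CPM ranges of the genotypes did not overlap for 7 of the 10, against 53.8% of all genes tested. Past 2-fold were 2 of the 10, Il1b and Il1rn, against 6.40% of all genes tested.

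**Figure D1:**
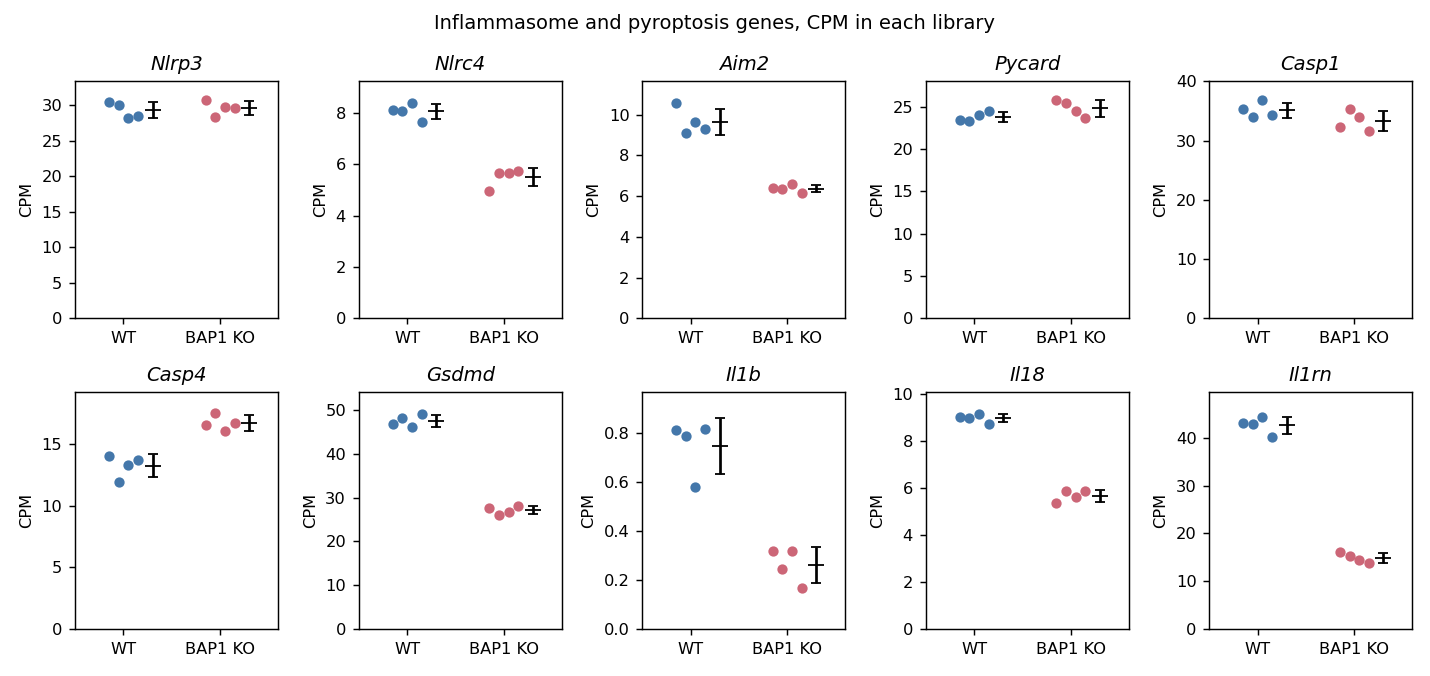
CPM (y axis, from 0, a scale of its own per gene) of each of the 10 genes in the 4 WT (blue) and 4 BAP1 KO (red) libraries; points are libraries and the bar beside them is mean ± SD. Gsdmd, Il1rn, Il18, Il1b, Nlrc4 and Aim2 lie lower in every BAP1 KO library, Casp4 lies higher, and the points of Nlrp3, Pycard and Casp1 overlap.

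Among the sensors, Nlrp3, which responds to potassium loss and many other forms of stress (Entrez 216799; chromosome 11, 59541569 to 59566955), differed between genotypes by less than the libraries scattered. Its CPM was 30.6, 30.1, 28.2 and 28.5 in the WT libraries and 30.8, 28.3, 29.8 and 29.6 in the BAP1 KO libraries. The genotypes overlapped, and its log2 fold change came to 0.01 ± 0.04 (SE; 95% interval -0.06 to 0.09; adjusted p = 0.76 by edgeR).

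Nlrc4, which signals for NAIP proteins that bind bacterial flagellin and secretion system parts (Entrez 268973; chromosome 17, 74426255 to 74459144), stood at 8.12, 8.08, 8.38 and 7.66 CPM in WT and 4.95, 5.67, 5.64 and 5.72 CPM in BAP1 KO. Every BAP1 KO library was below every WT library. Its log2 fold change came to -0.55 ± 0.06 (adjusted p = 4.1e-09 by edgeR), to 68.2% of the WT mean. Aim2, a sensor of DNA in the cytosol (Entrez 383619; chromosome 1, 173349547 to 173466040), was at 10.6, 9.08, 9.64 and 9.29 CPM in WT and 6.40, 6.33, 6.61 and 6.15 CPM in BAP1 KO. Its groups were also apart, at a log2 fold change of -0.59 ± 0.06 (adjusted p = 2.7e-10 by edgeR).

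The adaptor Pycard (Entrez 66824; chromosome 7, 127991373 to 127993867) had 23.5, 23.3, 24.02 and 24.6 CPM in WT and 25.8, 25.4, 24.5 and 23.6 CPM in BAP1 KO. These ranges overlap, and its log2 fold change came to 0.06 ± 0.04 (95% interval -0.02 to 0.14; adjusted p = 0.18 by edgeR). Exons of Pycard overlap those of the unreviewed model Gm45205 on the opposite strand over 485 bp, and 11.7% of the 50-base stretches of its annotated transcripts also occur in another gene, so its count is less certain than those of the other members, where that share was at most 1.09%.

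Casp1, the protease of the canonical complex (Entrez 12362; chromosome 9, 5298517 to 5307281), stood at 35.4, 34.0, 36.8 and 34.4 CPM in WT and 32.4, 35.3, 34.0 and 31.7 CPM in BAP1 KO. The ranges overlap and its log2 fold change came to -0.08 ± 0.04 (95% interval -0.15 to -0.0017; adjusted p = 0.071 by edgeR). The interval, which is not adjusted over genes, lies wholly below no change. This gene lies at the threshold: it passed with upper quartile factors (adjusted p = 0.044), with library totals alone (0.033), and without WT replicate 2 (0.048), WT replicate 4 (0.047) or BAP1 KO replicate 2 (0.019), at log2 fold changes of -0.08 to -0.10. Over all its alternatives the adjusted p ran from 0.019 to 1.

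Casp4 (Entrez 12363; chromosome 9, 5308849 to 5336791) begins shortly after the end of Casp1 on the same strand. It was at 14.1, 11.9, 13.3 and 13.7 CPM in WT and 16.6, 17.5, 16.1 and 16.7 CPM in BAP1 KO. All BAP1 KO libraries were above all WT libraries, and the gene rose by 0.34 ± 0.05 on the log2 scale (adjusted p = 4.9e-07 by edgeR), to 126.1% of WT.

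Pyroptosis itself is carried out by the pore protein of Gsdmd (Entrez 69146; chromosome 15, 75862144 to 75867408). Its libraries held 46.7, 48.1, 46.2 and 49.0 CPM in WT and 27.7, 26.0, 26.7 and 28.0 CPM in BAP1 KO. The groups were far apart relative to their spread, with SDs of 1.30 and 0.95 CPM. Its log2 fold change came to -0.81 ± 0.03 (adjusted p = 2.1e-19 by edgeR), to 57.1% of WT. Of all genes tested, 6.54% had a lower log2 fold change.

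Of the cytokines, Il18 (Entrez 16173; chromosome 9, 50554700 to 50581841), which drives interferon gamma production in lymphocytes, stood at 9.01, 8.98, 9.16 and 8.73 CPM in WT and 5.34, 5.85, 5.61 and 5.87 CPM in BAP1 KO. The WT libraries were close together, all BAP1 KO libraries were lower, and its log2 fold change came to -0.66 ± 0.06 (adjusted p = 1.5e-11 by edgeR).

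Il1b (Entrez 16176; chromosome 2, 129364569 to 129371164), a fever-inducing cytokine, was scarce in both genotypes, with 12 to 67 counts per library. It stood at 0.81, 0.79, 0.58 and 0.82 CPM in WT and 0.32, 0.24, 0.32 and 0.17 CPM in BAP1 KO. Even the lowest WT library was above the highest BAP1 KO library. Its log2 fold change came to -1.51 ± 0.22 (95% interval -1.97 to -1.06; adjusted p = 7e-07 by edgeR). Its relative SD of 15.3% in WT and 27.9% in BAP1 KO was close to the 13.3% and 22.5% that counting error alone gives at this depth, so the size of the fall is known less precisely than for the other members. Its exons overlap the antisense gene Il1bos over 25 bp.

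Il1rn (Entrez 16181; chromosome 2, 24336860 to 24351491), whose product occupies the interleukin-1 receptor without signalling, had 43.1, 43.0, 44.4 and 40.1 CPM in WT and 16.2, 15.2, 14.4 and 13.8 CPM in BAP1 KO. No BAP1 KO library came near the WT range. With a log2 fold change of -1.52 ± 0.04 (adjusted p = 1.8e-23 by edgeR) the gene fell to 34.9% of WT, and only 1.58% of all genes tested had a lower value.

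**Figure D2:**
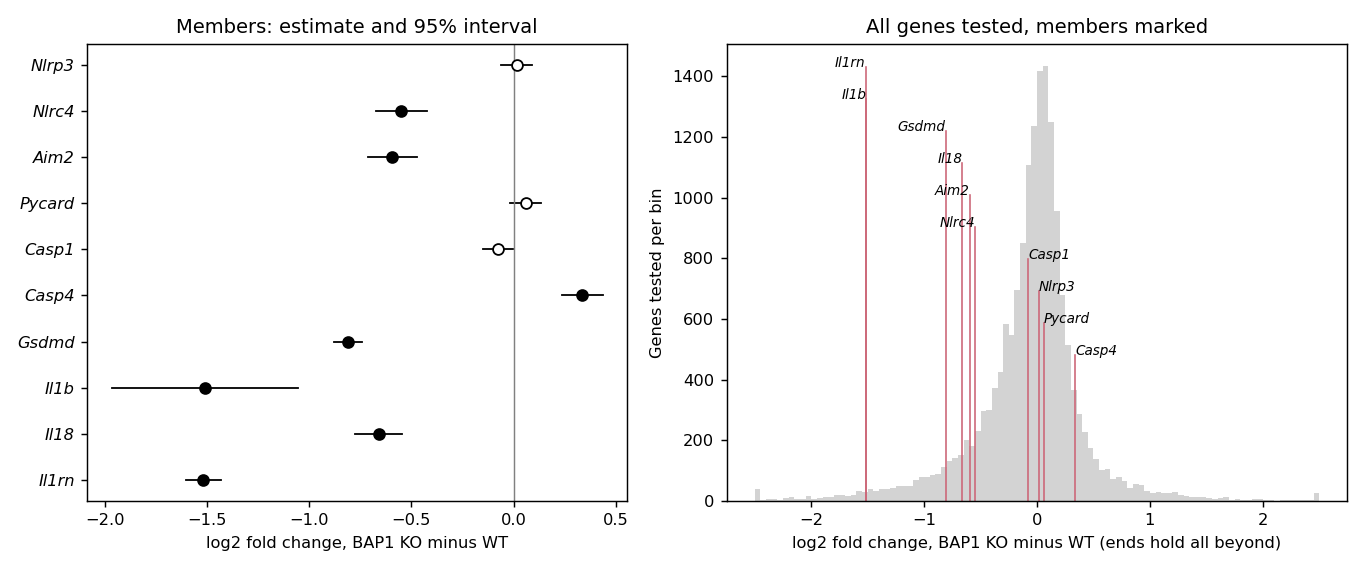
Left, log2 fold change (BAP1 KO minus WT) of each gene with its 95% interval, filled where the adjusted p was below 0.05 and open where not. Right, the log2 fold changes of all 16929 genes tested as a histogram with the 10 genes marked by red lines, where the lines of Il1b and Il1rn, at -1.51 and -1.52, fall on each other in the lower tail and those of Nlrp3, Pycard and Casp1 stand in the centre.

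Levels per transcript length were compared with the authors' normalized RPKM. In WT the order was Gsdmd (23.3 ± 0.64 RPKM; SD, n = 4), Casp1 (22.9 ± 0.84), Il1rn (14.9 ± 0.62), Pycard (11.02 ± 0.28), Casp4 (8.93 ± 0.64), Nlrp3 (7.11 ± 0.27), Il18 (5.28 ± 0.10), Nlrc4 (1.70 ± 0.06), Aim2 (1.39 ± 0.10) and Il1b (0.35 ± 0.05). Only the ranges of the neighbours Gsdmd and Casp1 overlapped. In BAP1 KO the order of the first 6 was Casp1 (21.9 ± 1.04 RPKM), Gsdmd (13.4 ± 0.49), Pycard (11.6 ± 0.48), Casp4 (11.4 ± 0.41), Nlrp3 (7.24 ± 0.27) and Il1rn (5.26 ± 0.38), followed by the other genes in the WT order. There only Pycard and Casp4 overlapped as neighbours. Il1rn thus moved from place 3 to place 6, and Gsdmd, whose range overlapped that of Casp1 in WT, stood below it in BAP1 KO.

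The balance between pairs of these genes was measured as the log2 ratio of their counts within each library, which does not depend on how libraries are scaled. The log2 ratio of Il1b to Il1rn was -5.84 ± 0.29 (SD, n = 4) in WT and -5.88 ± 0.39 in BAP1 KO, a difference of -0.03 that is far smaller than the spread between libraries (exact permutation test, two-sided p = 0.89). Il18bp, the secreted protein that neutralizes interleukin-18, moved against its ligand: the log2 ratio of Il18 to Il18bp went from -0.04 ± 0.04 to -1.39 ± 0.06. Its values were -0.05, -0.03, 0.00 and -0.08 in WT and -1.42, -1.36, -1.46 and -1.32 in BAP1 KO, with no overlap. The ratio of Casp1 to Casp4 went from 1.41 ± 0.10 to 0.995 ± 0.07, also without overlap, and that of Nlrp3 to Pycard from 0.30 ± 0.09 to 0.26 ± 0.07 (exact permutation p = 0.46). For Il18 to Il18bp and for Casp1 to Casp4 the exact permutation p was 0.029, the smallest that 4 against 4 libraries can give, and adjusted over the 4 ratios it was 0.058, which misses the threshold of 0.05. Exons of Il18bp overlap those of Numa1 on the opposite strand over 80 bp.

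**Figure D3:**
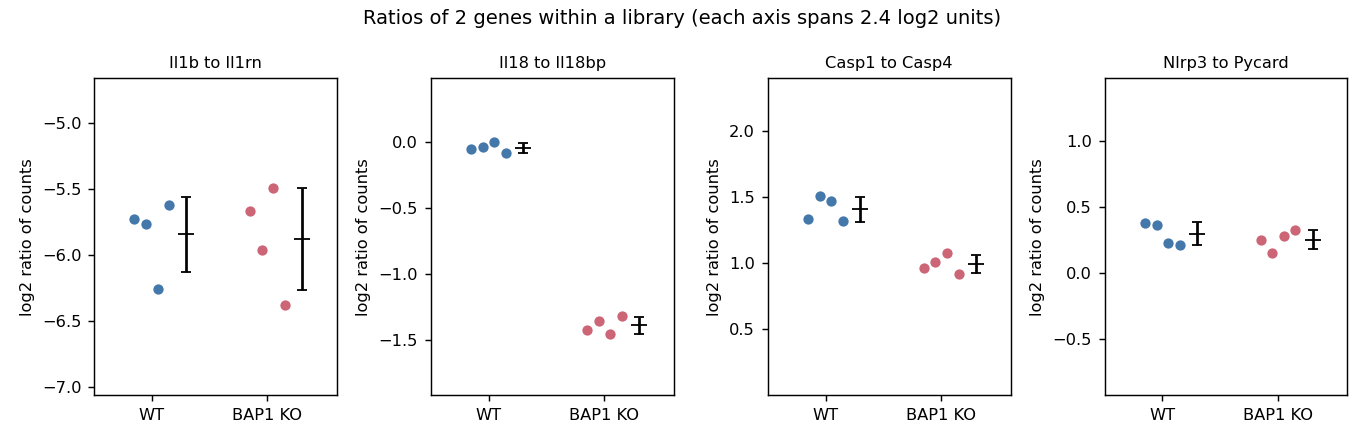
Log2 ratio of the counts of 2 genes (y axis) in each WT (blue) and BAP1 KO (red) library, with mean ± SD beside the points; every axis spans the same number of log2 units. Il18 to Il18bp drops from about -0.04 to -1.39 and Casp1 to Casp4 from 1.41 to 0.995, while the points of the other 2 ratios overlap.

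The wider pathway was read from 6 lists with 88 genes, also chosen with earlier results of these data known. Of the 88 genes, 72 passed the filter on low counts. Together 18 of these were higher in BAP1 KO, 38 lower and 16 did not pass, where 29% of all genes tested were higher and 32.1% lower. Among genes named from here on, those beyond the naming rule in the methods were picked after their values were seen.

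Of the other cytosolic sensors 9 were tested, with 5 lower in BAP1 KO, 2 higher, 2 short of the threshold and a median log2 fold change of -0.12. Over all genes 61.1% passed. Nlrp1a, a sensor of the Nlrp1 group, fell by 0.66 ± 0.08 (adjusted p = 2.9e-08 by edgeR) from 5.18 to 3.28 CPM. Nod2, which binds bacterial muramyl dipeptide, fell by 0.68 ± 0.12 from 1.88 to 1.16 CPM. Nod1, the related sensor of another cell wall fragment, rose from 69.6 to 81.3 CPM (0.22 ± 0.03). Of the NAIP proteins, which bind a bacterial ligand and then recruit Nlrc4, Naip2 fell by 0.10 ± 0.04 from 28.3 to 26.4 CPM and Naip6 by 0.35 ± 0.07. Naip1 rose by 0.35 ± 0.15 at 1.14 and 1.45 CPM, and Naip5 stood at 6.70 and 6.17 CPM (adjusted p = 0.13 by edgeR). The NAIP genes are close copies, and 21.5% of the 50-base stretches of Naip6 occur in another gene, so their counts are uncertain. Nlrp6, Nlrp12 and Mefv stayed under the filter, with at most 10 counts in a library.

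Regulators of assembly numbered 14, of which 7 were lower, 3 higher and 4 short of the threshold, with a median of -0.10. The share that passed is near the 61.1% of all genes. Irgm1, an interferon-induced GTPase, fell from 134.8 to 65.1 CPM (-1.05 ± 0.03; adjusted p = 2.2e-24 by edgeR). The guanylate-binding proteins Gbp3 and Gbp2, which open or mark bacteria in the cytosol, fell by 0.67 ± 0.05 and 0.29 ± 0.03, and the potassium channel Kcnk6, whose potassium efflux activates Nlrp3, by 0.59 ± 0.04 from 24.9 to 16.6 CPM. The 3 that rose did so by small amounts: Txnip (0.19 ± 0.02), Dpp8 (0.10 ± 0.02) and Dpp9 (0.13 ± 0.03), of which the last 2 are peptidases that restrain Nlrp1. Nek7, the kinase that binds Nlrp3, fell by 0.09 ± 0.02. The ATP-gated channel P2rx7 was at 66.2 and 68.7 CPM (adjusted p = 0.08 by edgeR).

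Among genes of other lytic death all 8 tested passed, 6 lower and 2 higher, with a median of -0.68, where 61.1% of all genes passed and 32.1% were lower. Gsdme, another pore-forming gasdermin, was at 6.24, 5.64, 5.998 and 6.14 CPM in WT and 1.603, 1.59, 1.84 and 1.74 CPM in BAP1 KO. It fell by 1.82 ± 0.08 (adjusted p = 2.7e-18 by edgeR), more in log2 terms than Gsdmd, although whether the 2 falls differ was not tested. The necroptosis kinase Ripk3 fell from 85.8 to 43.5 CPM (-0.98 ± 0.03) and its substrate Mlkl by 0.67 ± 0.04, while Ripk1 rose by 0.11 ± 0.03. Ninj1, which ruptures the membrane after gasdermin pores have formed, went the other way, from 103.7, 109.7, 112.5 and 120.7 CPM in WT to 171.0, 164.1, 166.5 and 176.8 CPM in BAP1 KO (0.60 ± 0.04; adjusted p = 6.7e-11 by edgeR). The 7 gasdermin A and C genes had at most 16 counts in any library.

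Ligands, receptors and adaptors of the interleukin-1 family gave 18 tested genes, of which 8 were lower, 4 higher and 6 short of the threshold, with a median of -0.18. The share that passed is again near the 61.1% of all genes. The signalling receptor Il1r1 was at 187.1, 184.6, 186.4 and 178.8 CPM in WT and 100.3, 98.9, 106.3 and 99.1 CPM in BAP1 KO, a fall of 0.86 ± 0.03 (adjusted p = 3.5e-23 by edgeR). Il33, an alarmin stored in nuclei, fell by 0.72 ± 0.04 from 26.0 to 15.7 CPM, and Irak3, which damps signalling from the receptor, by 0.63 ± 0.04; exons of Irak3 overlap Tmbim4 over 192 bp. Sigirr, a receptor that dampens interleukin-1 signalling, was scarce at 7 to 55 counts per library and fell by 2.13 ± 0.25 from 0.68 to 0.16 CPM (adjusted p = 1.4e-08 by edgeR). The 4 that rose were Il18bp (0.69 ± 0.05, from 9.23 to 14.8 CPM), Il1a (0.44 ± 0.06, from 4.97 to 6.77 CPM), and the kinases Irak1 and Irak2 (both 0.24). The cytokines Il1a and Il1b, which bind the same receptor, thus passed the test in opposite directions. The adaptor Myd88 stood at 63.0 and 65.5 CPM (adjusted p = 0.094 by edgeR). Il36a, Il36b, Il36g and Il1f10 had at most 3 counts in a library.

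Of 13 priming inputs 4 were higher, 5 lower and 4 short of the threshold, with a median of 0.01. These shares are near those of all genes, 29% higher and 32.1% lower. The receptor Tlr2 rose from 73.8 to 113.1 CPM (0.62 ± 0.03; adjusted p = 2.6e-19 by edgeR) and Spi1, which encodes PU.1, by 0.27 ± 0.03 from 139.0 to 167.5 CPM. The NF-kB subunits Rela and Nfkb1 rose by 0.20 ± 0.03 and 0.14 ± 0.02. Cd14, the co-receptor for lipopolysaccharide, fell from 148.8 to 74.9 CPM (-0.99 ± 0.02), and the Toll adaptor Ticam2 by 0.75 ± 0.06; Ticam2 shares 838 bp of exons with Tmed7 on the same strand. Among 10 tested genes that NF-kB and Toll signals induce, 3 rose and 7 fell, with a median of -0.29, where 29% of all genes were higher and 32.1% lower. Tnf rose from 23.8 to 32.6 CPM (0.46 ± 0.04; adjusted p = 1.1e-12 by edgeR), Icam1 by 0.30 ± 0.02 and Nfkbia by 0.27 ± 0.03. Ptgs2, the inducible cyclooxygenase, fell from 66.0 to 39.6 CPM (-0.73 ± 0.03) and Nfkbiz by 0.55 ± 0.03. Icam1 overlaps the antisense model Gm47079 over 511 bp of exons. Nos2 stayed under the filter with at most 11 counts in a library.

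**Figure D4:**
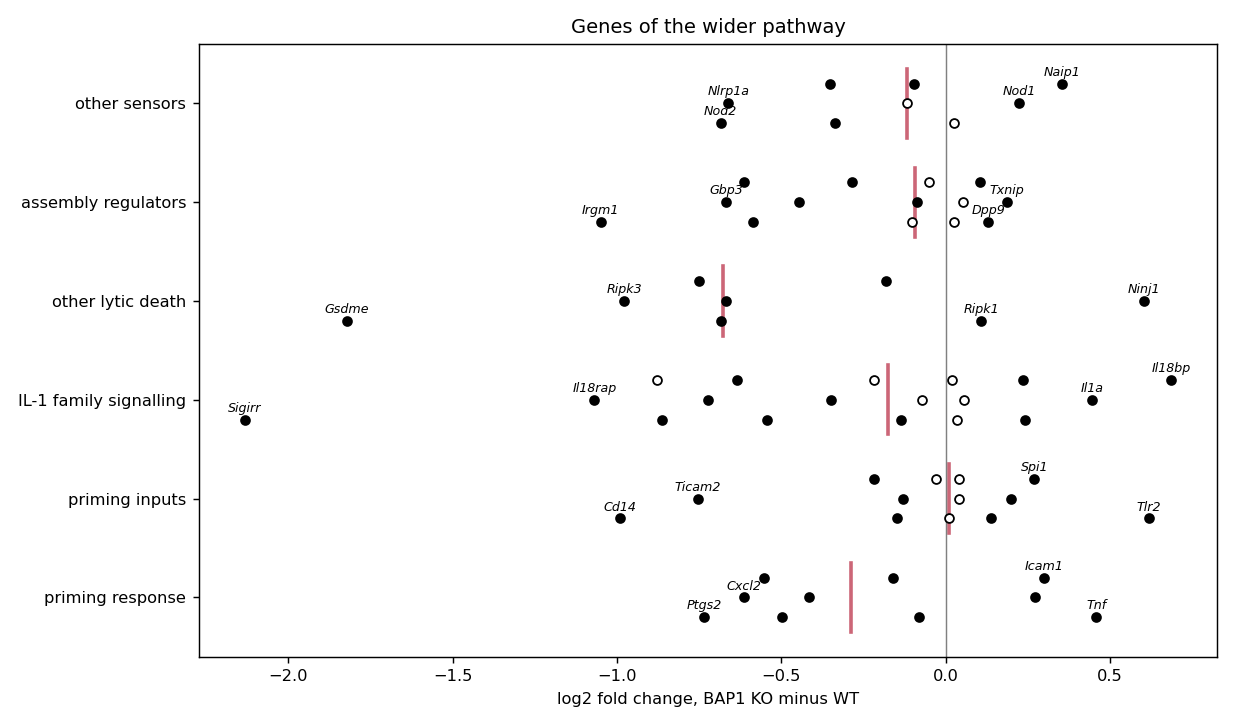
Log2 fold change (x axis, BAP1 KO minus WT) of each tested gene in the 6 lists (rows), filled where the adjusted p was below 0.05 and open where not, with the median of a list as a red bar; vertical offsets within a row only separate points, and the 2 lowest and 2 highest genes of each list are named. Medians run from -0.68 for other lytic death to 0.01 for priming inputs, and Sigirr, Gsdme, Irgm1, Cd14 and Ripk3 lie far to the left while Il18bp, Tlr2 and Ninj1 lie to the right.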

How the data were processed

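Polyadenylated RNA of 8 libraries (0.5 µg RNA each, single-end reads of 50 bp, per the labels' protocols) was grouped by the genotype label, and replicates were numbered in accession order, which pairs nothing. The authors deposited whole-number counts of reads that align uniquely to a gene model, and RPKM values scaled with size factors, per the file headers, so reads shared by near-identical genes are left out. GSNAP and GRCm38 are named in the submitters' processing notes; the version, annotation and strand setting are not stated there, so reads of genes that overlap on opposite strands may not be told apart. Symbols came from RefSeq GRCm38.p6 (31049 identifiers) and GENCODE vM21 (78).

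The counts were tested over all genes with edgeR 4.0.16 (R 4.3.3), using TMM factors, filterByExpr and robust quasi-likelihood F tests; p-values were adjusted by Benjamini-Hochberg, at threshold 0.05. Standard errors were derived from the fold change and F. CPM use the TMM-scaled total. Ratios were tested by exact permutation over 70 assignments. The fit was tested on simulated data in which few genes changed, a setting unlike these data. Every pair of replicates differed beyond counting noise (median squared differences 2.38 to 5.32 times it). The 10 genes and all lists were chosen with earlier results of these data known. Named were the 10 genes, Bap1 and, of each pathway list, up to 4 genes with the smallest adjusted p that passed, except 1 that is not reported here. Alternatives were RLE, upper quartile and no factors, no filter or CPM above 1 in 4 libraries, DESeq2 1.42.0, limma-voom (limma 3.58.1), a test against a 1.5-fold change, RPKM or a pseudocount of 0.5 for ratios, and each library left out. One listed symbol, Il36rn, was not matched to an identifier and is not analysed here.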

Additional observations from a re-analysis of the deposited data

Results flagged for a closer look

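In 3 groups of 4 libraries the lowest library stood apart from the other 3 by a gap beyond Dixon's 95% critical value, among 76 groups examined, where chance alone gives about 1 in 20. Nlrc4 was at 4.95 CPM in BAP1 KO replicate 1 and at 5.64 to 5.72 CPM in the other BAP1 KO libraries. Il1b was at 0.58 CPM in WT replicate 3 and at 0.79 to 0.82 CPM in the other WT libraries. Nod2 was at 1.01 CPM in BAP1 KO replicate 1 and at 1.2 to 1.23 CPM in the others. All 3 genes kept their direction and their call when the library concerned was left out.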

How the results depend on the processing

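The direction and the call of 7 of the 10 genes did not depend on scaling (RLE, upper quartile or library totals alone), DESeq2, limma-voom, the absence of a filter or any library left out, except that Il1b was not tested under the filter of CPM above 1. Nlrp3 and Pycard passed under no alternative, and Casp1 passed under 5. The log2 fold change of Nlrp3 changed sign, at -0.0011 with library totals alone, -0.0047 without BAP1 KO replicate 1 and -0.0043 without WT replicate 3, and ranged up to 0.0358 with a library left out. Against a 1.5-fold change in place of any change, 1384 genes passed (370 higher, 1014 lower), and 3 of the 10 (Gsdmd, Il1b and Il1rn). Of the lists, 4 interleukin-1 family genes, 4 of other lytic death, 2 priming inputs, 1 of the priming response, 1 assembly regulator and 0 other sensors passed that stricter test. Of the sensors, 0 of 9 had an unadjusted p below 0.05 in it (edgeR), and against no change DESeq2 called 5 and limma-voom 6. With one library left out, 9822 to 10253 genes passed, and 7 or 8 of the 10. The differences in ratio were the same with RPKM, which is no check on them, because library scaling and gene length cancel in such a difference. With a pseudocount of 0.5 that of Il1b to Il1rn went from -0.03 to -0.0085. With a library left out it ran from -0.17 (without WT replicate 3) to 0.13 (without BAP1 KO replicate 4), changing sign, and 0.057 is then the smallest exact p possible for any ratio. No paired analysis was possible because replicate numbers were given in accession order and pair no samples. Of the 10 genes, depth limits Il1b most, at 12 to 67 counts per library.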

Other observations

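Markers of other immune cells were scarce. Summed over 7 dendritic cell markers the level was 24.9 to 25.4 CPM in WT and 20.1 to 23.0 CPM in BAP1 KO, and of the 4 tested 2 were lower and 1 higher. Most of that sum was the 2 lower ones, Zbtb46 (11.53 to 8.68 CPM) and Itgax (13.15 to 11.57 CPM). Cd209a was the 1 higher (0.15 to 0.57 CPM). Summed over 8 lymphocyte markers it was 5.02 to 5.28 CPM in WT and 3.13 to 3.53 CPM in BAP1 KO. Most of the WT sum was Cd4, which fell from 3.27 to 1.14 CPM. Of the 4 lymphocyte markers tested, Cd4 was the 1 lower and Cd79a the 1 higher (0.59 to 0.91 CPM). Over all genes tested 61.1% passed. The 12 mesothelial markers summed to 1238 to 1270 CPM in WT and 1302 to 1312 CPM in BAP1 KO. Their part in the results on inflammasome genes was not tested.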
